A study of Homo sapiens with 5 samples.

Results

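Levels of the miR-17-92 and miR-106a-363 cluster miRNAs were examined in 5 human hematopoietic cell lines. Members were chosen by name: each human probe of the panel called miR-17, miR-18a, miR-18b, miR-19a, miR-19b, miR-20a, miR-20b, miR-92a, miR-106a or miR-363, alone or joined to another name, was taken, and star forms (the opposite strand of a hairpin) were not. This gave 8 of the 654 human miRNA probes. 2 of the 8 probes are joint probes, miR-106a+miR-17 and miR-20a+miR-20b, each of which reports 1 count for a pair of miRNAs, so the pair cannot be told apart. The panel held 0 star forms of these miRNAs.

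The lines were the erythroleukemic K562, the monocytic U937, the megakaryoblastic Meg-01, the T-lymphoblastic Jurkat and the B-lymphoblastic Raji. The study describes such lines as frequent models of primary cells, and it compared their profiles with those of primary blood cells. From each line 100 ng of total RNA was hybridised to nCounter probes, which are barcoded probes counted one by one without amplification. Each line was measured once and is a single established culture, so no spread between replicates exists and no test was made. The intervals given are 95% and cover counting error only.

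Human miRNA counts ranged from 66892 in Raji to 130048 in Jurkat. A probe was called detected when it exceeded the average of its line's 8 negative controls by more than 2 SD, a raw count of 34.6 (K562) to 45.9 (Raji). Scaled counts are raw counts multiplied by 1 factor per line, 0.741 (Meg-01) to 1.58 (Raji), that equalises the geometric mean of the 100 highest miRNAs. Lineage markers were read as a check of the labels. miR-142-3p, a miRNA of blood cells, was among the 4 highest probes of every line, and miR-223, a myeloid miRNA, counted 3269 in Meg-01, 2682 in U937, 1684 in K562, 732 in Jurkat and 62 in Raji. After scaling, U937 (2798) lay above Meg-01 (2424), the reverse of the raw order. The red cell miRNA miR-451 was detected in Meg-01 (129) and K562 (59) alone, as was miR-144 (981 and 216). miR-126, found in megakaryocytes and progenitors, was highest there too (1954 and 1482). miR-150, a miRNA of mature lymphocytes, counted 1030 in Jurkat and was below threshold in Raji (21) and the other lines.

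The miR-17-92 cluster is a polycistron, a single transcript from which several miRNA hairpins are cut, and its host gene is the noncoding RNA gene MIR17HG. Its transcription is driven by MYC, it is amplified in B cell lymphoma, and its miRNAs repress regulators of cell death and the cell cycle such as BCL2L11 and CDKN1A. The miR-106a-363 cluster on the X chromosome is its paralog, as is the miR-106b-25 cluster within the gene MCM7. Target choice rests mainly on the seed, bases 2 to 8 of the mature miRNA, and the miR-17-92 and miR-106a-363 clusters share their seeds.

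In the RefSeq annotation of GRCh38.p14 the hairpins of miR-17-92 span chr13:91350605-91351391 on the plus strand (787 bases), and those of miR-106a-363 span chrX:134169378-134170278 on the minus strand (901 bases). Both hold 6 miRNA genes. The mature sequences of the 10 miRNAs named by the 8 probes were taken from RefSeq, since they show which members a probe could tell apart and which share a seed. Seeds are in capitals.
miR-17: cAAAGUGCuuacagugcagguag
miR-106a: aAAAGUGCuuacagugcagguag
miR-20a: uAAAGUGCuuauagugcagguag
miR-20b: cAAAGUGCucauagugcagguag
miR-18a: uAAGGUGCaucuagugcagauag
miR-18b: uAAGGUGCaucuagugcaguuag
miR-19a: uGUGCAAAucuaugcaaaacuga
miR-19b: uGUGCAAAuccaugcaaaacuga
miR-92a: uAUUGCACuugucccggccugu
miR-363: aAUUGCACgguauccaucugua

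Positions in what follows are counted from 1 at the 5′ end. Of the miRNAs joined in 1 probe, miR-17 and miR-106a differ by C1A alone, and miR-20a and miR-20b by U1C and U10C. Of those reported by separate probes, miR-18a and miR-18b differ by A20U alone, miR-19a and miR-19b by U11C alone, and miR-17 and miR-20a by C1U and C12U. miR-92a and miR-363 share the seed but differ at 12 of 22 positions. miR-19b and miR-92a are encoded in both clusters with the same mature sequence. Only 4 probes therefore belong to 1 cluster: miR-18a and miR-19a to miR-17-92, and miR-18b and miR-363 to miR-106a-363.

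Of the cluster probes, 3 were among the 5 highest human probes in every line. miR-92a was the highest human probe in Raji, U937 and K562 and the second highest, after miR-142-3p, in Meg-01 and Jurkat. miR-20a+miR-20b ranked 3 or 4 and miR-19b ranked 4 or 5 in all lines. Detected members numbered 7 of 8 in K562 (27.5% of all human probes were detected there), 7 in U937 (28.3%), 7 in Meg-01 (27.2%), 8 in Jurkat (35%) and 7 in Raji (17%). In all 5 lines 7 of the 8 members were detected, against 13.5% of the human probes, and the exception was miR-363. This rested on the threshold: above the plain mean of the negative controls all 8 members, and 43.3% of the human probes, were detected in every line. The deposited signals also had all 8 above 0. With the mean plus 3 SD, Raji had 6.

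hsa-miR-92a is the last miRNA of miR-17-92 and carries the AUUGCAC seed. It gave 22639 raw counts in K562, 15133 in U937, 15661 in Meg-01, 14415 in Jurkat and 8533 in Raji. K562 was highest and Raji lowest before scaling. After scaling, Meg-01 (11611 scaled counts) and Jurkat (11609) were lowest and lay within counting error of each other, and K562 (27687) was 2.38-fold above Jurkat (2.34 to 2.44).

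miR-20a and miR-20b carry the AAAGUGC seed of miR-17, whose targets include the cell cycle inhibitor CDKN1A. Their joint probe, hsa-miR-20a+miR-20b, gave 10678 raw counts in K562, 7475 in U937, 5882 in Meg-01, 6179 in Jurkat and 3201 in Raji. The scaled count in K562 was 2.99-fold that in Meg-01 (2.90 to 3.09). Raji and Jurkat, adjacent in the scaled order, could not be separated by counting error (1.02-fold, 0.973 to 1.06).

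hsa-miR-19b, of the family that is the main oncogenic component of miR-17-92, gave 6805 raw counts in K562, 5120 in U937, 4212 in Meg-01, 4312 in Jurkat and 2958 in Raji. The scaled order was K562, U937, Raji, Jurkat and Meg-01, with every neighbouring pair apart beyond counting error. K562 was 2.66-fold above Meg-01 (2.56 to 2.77).

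The remaining members lay far lower, as the plot of raw counts by probe shows. The joint probe of miR-106a and miR-17 gave 530 counts in K562, 349 in U937, 300 in Meg-01, 340 in Jurkat and 192 in Raji, ranking between 18 (K562) and 46 (Meg-01). hsa-miR-19a gave 417, 231, 153, 221 and 110 counts in the same order of lines. hsa-miR-18a gave 225, 84, 96, 121 and 69. For all 3 probes K562 was highest, both in raw and in scaled counts. A scaled count of miR-19a 4.496-fold above Meg-01 (3.73 to 5.45) was the widest such ratio among the members detected in all 5 lines, and miR-18a followed at 3.87-fold (3.03 to 4.96). These were ratios before background subtraction. After it, K562 over Meg-01 was 5.69 for miR-19a, 5.83 for miR-18a and 11.3 for miR-18b, which lay near the threshold in Meg-01. Below K562 the 4 other lines did not differ from their neighbour in the order beyond counting error for miR-18a.

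**Figure D1:**
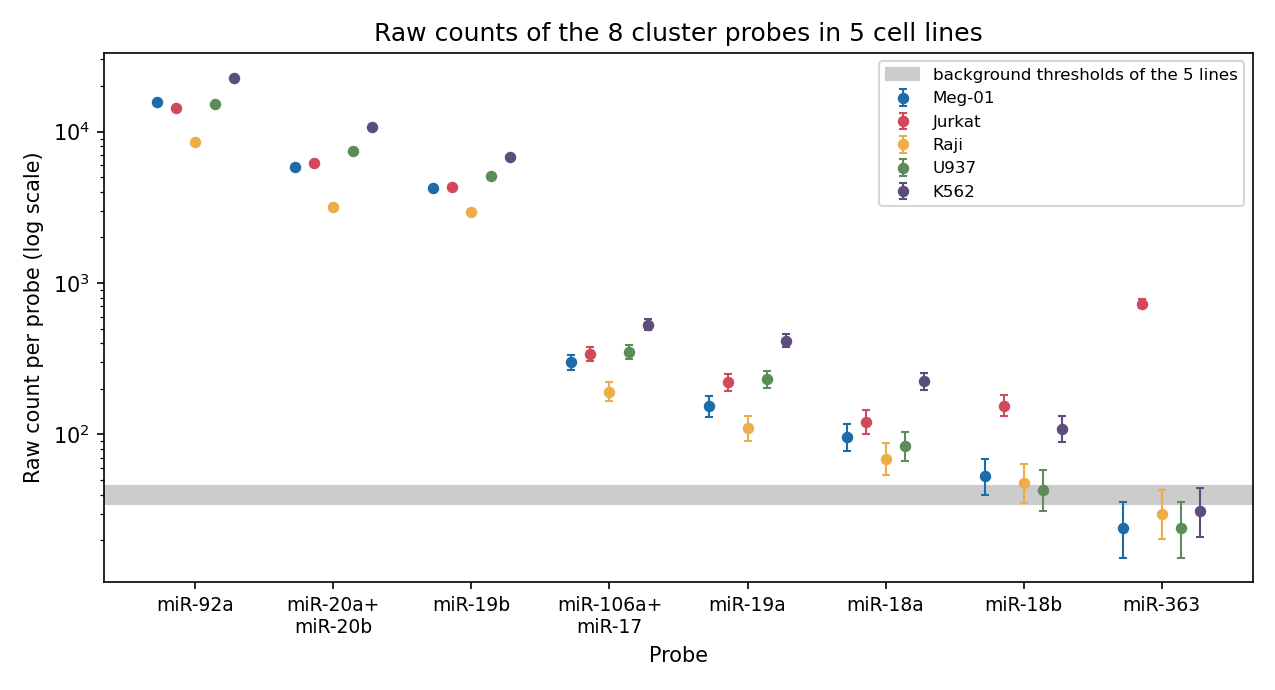
Raw count (log axis) of each of the 8 cluster probes in the 5 lines, with exact Poisson 95% intervals and a grey band from the lowest to the highest background threshold (34.6 to 45.9). miR-92a, miR-20a+miR-20b and miR-19b lie far above the other probes, and miR-363 is above the band in Jurkat alone (732).

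miR-18b and miR-363, the probes of miR-106a-363, did not have their highest raw count in K562. hsa-miR-18b gave 109 counts in K562, 43 in U937, 53 in Meg-01, 155 in Jurkat and 48 in Raji. Jurkat was highest in raw counts, and after scaling K562 lay 1.07-fold above Jurkat, within counting error (0.828 to 1.37). In Meg-01, Raji and U937 the counting interval of miR-18b reached down to the threshold. Asking that the whole interval lie above it, a criterion added after the data were seen, left 33 of the 36 detected combinations of member and line.

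miR-363 gave 31 counts in K562, 24 in U937, 24 in Meg-01, 732 in Jurkat and 30 in Raji. It was above threshold in Jurkat alone, where it ranked 23. The scaled count in Jurkat was at least 8.14-fold above that of any other line, taking the highest scaled threshold of the others (Raji) as the level there. The order of the 4 other lines has no meaning, since all were below threshold.

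The 8 probes together held 46.1% of the background-subtracted human miRNA signal in K562, 36.4% in U937, 28.7% in Meg-01, 23.3% in Jurkat and 30.7% in Raji. As shares of raw counts the values were 39.4% (39.1 to 39.7, exact Clopper-Pearson), 30.3% (30.0 to 30.6), 24.0% (23.8 to 24.3), 20.4% (20.1 to 20.6) and 22.6% (22.3 to 23.0) in that order. K562 was highest and Jurkat lowest on both measures, and a share does not depend on the scaling factor. A share does depend on the other miRNAs. miR-142-3p held 29.3% of the signal in Jurkat and 8.29% in K562, and its part in the order of the shares was not tested.

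**Figure D2:**
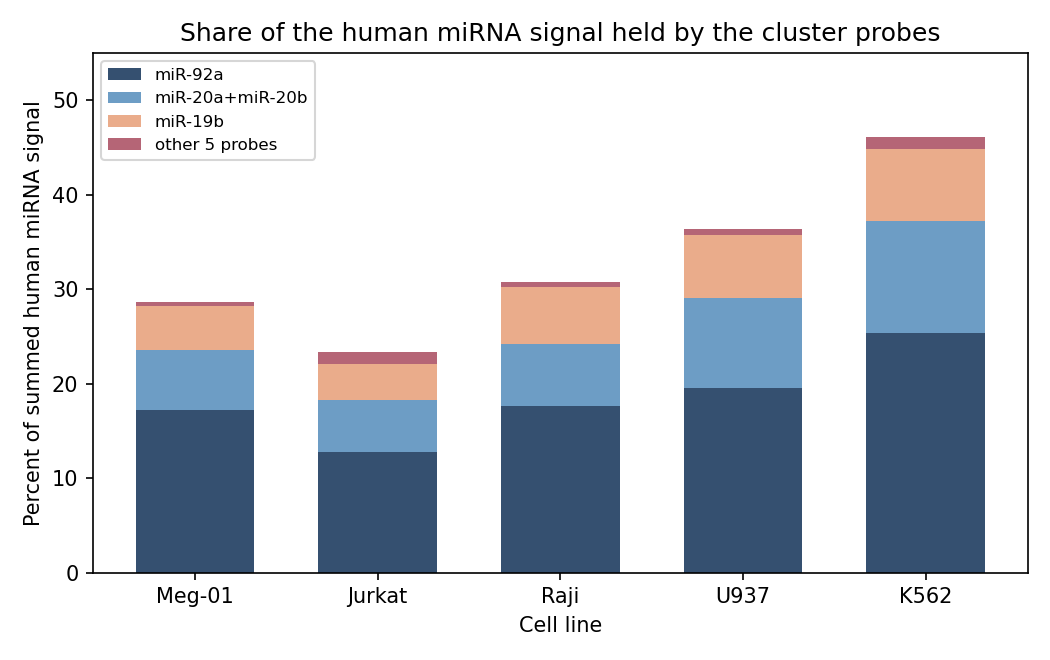
Percent of the summed background-subtracted human miRNA signal held by the cluster probes in each line (1 sample per line, so no error bars), stacked as miR-92a, miR-20a+miR-20b, miR-19b and the other 5 probes. The total runs from 23.3% in Jurkat to 46.1% in K562, and the 3 lower segments make up nearly all of each bar.

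Summed scaled counts of the 8 probes were 50672 in K562, 29693 in U937, 19559 in Meg-01, 21322 in Jurkat and 23903 in Raji, and neighbours in the order of this sum were apart beyond counting error. K562 was 2.59-fold above Meg-01 (2.55 to 2.63), or 1.37 on the log2 scale. All 8 members belonged to the 100 miRNAs used for scaling. K562 stayed highest under each of the 7 scalings tried, but the lowest line was Raji without scaling or with the positive controls or housekeeping probes, and Jurkat with the total human count without the members.

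Each line was set against the geometric mean of the other 4, with values below threshold entered at the threshold. Outside Jurkat the value of miR-363 is such a threshold, so whether it passed as lower in a line followed from the thresholds and the scaling, and nothing is read from it. In K562, 7 of the 8 members were over 2-fold higher, against 9.74% of the 308 human probes detected in at least 1 line, and 0 of the measured members were lower (5.19%). Their log2 differences ran from 1.04 (miR-19b) to 1.61 (miR-18a), and after background subtraction from 1.04 (miR-19b) to 2.29 (miR-18a) and 2.90 (miR-18b). Without scaling, and with positive control scaling, only miR-18a and miR-19a passed 2-fold. With the 100 highest miRNAs chosen per line, and with the total human count without the members, miR-18b, miR-19b and miR-92a did not pass and 4 members did. Even so, all 7 stayed higher in K562 under every scaling. The median log2 difference of the 7 was 1.18, and that of the 88 human probes detected in all 5 lines was 0.26. The gap between these medians was 0.92. No scaling can change it, since a factor shifts all probes of a line alike, so it is no test of the scaling. The probes of those 88 over 2-fold higher in K562 numbered 18. They held the 7 members and 11 others, among them miR-223, miR-10a, miR-130b and miR-96.

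The other lines had fewer members past 2-fold. In Jurkat miR-363 was higher (7.14% of the 308 probes were) and 0 members were lower (12%). miR-18b in Jurkat stood just under the limit, at 0.94 on the log2 scale, and passed it without scaling (1.40), with positive controls (1.28), with housekeeping probes (1.23), after background subtraction (3.004) and against the median of the other lines (1.098). In Meg-01 the measured members that were lower (8.12%) were miR-18b (-1.14) and miR-19a (-1.13), and 0 were higher (7.79%). Neither passed without scaling, with positive controls or with the total human count without the members, and miR-19a did not against the median of the other lines. In U937, 0 of the measured members were lower (5.52%) or higher (5.19%), but miR-18b was over 2-fold lower after background subtraction (-1.38) and against the median of the other lines (-1.12). In Raji 0 members passed in either direction, where 38.6% of the probes were higher and 3.57% lower. This depended on the scaling: miR-19a and miR-20a+miR-20b were over 2-fold lower in Raji without scaling (-1.12 and -1.20) and with positive controls. With housekeeping probes these and miR-92a and miR-106a+miR-17 were lower (-1.37 to -1.12), and after background subtraction miR-18a and miR-18b were. Of the 119 probes called higher in Raji only 30 were detected there, and the others were set by its scaled threshold (72.4), the highest of the 5.

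Relative to the 88 probes, the members' median differed by -0.24 in Meg-01, -0.15 in Jurkat, -0.70 in Raji and 0.32 in U937 on the log2 scale. Raji was thus the line in which the members' median lay lowest against the other detected miRNAs, although its summed scaled count was in the middle of the 5. These medians are before background subtraction, and that of the 88 probes was 0.51 in Raji. Raji had the fewest human counts (66892) and the highest scaled threshold (72.4), and their part in this was not tested. In U937 the members split: miR-18a (-0.45) and miR-18b (-0.90) were lower than in the other 4 lines, and the other 5 were higher (0.08 to 0.34).

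**Figure D3:**
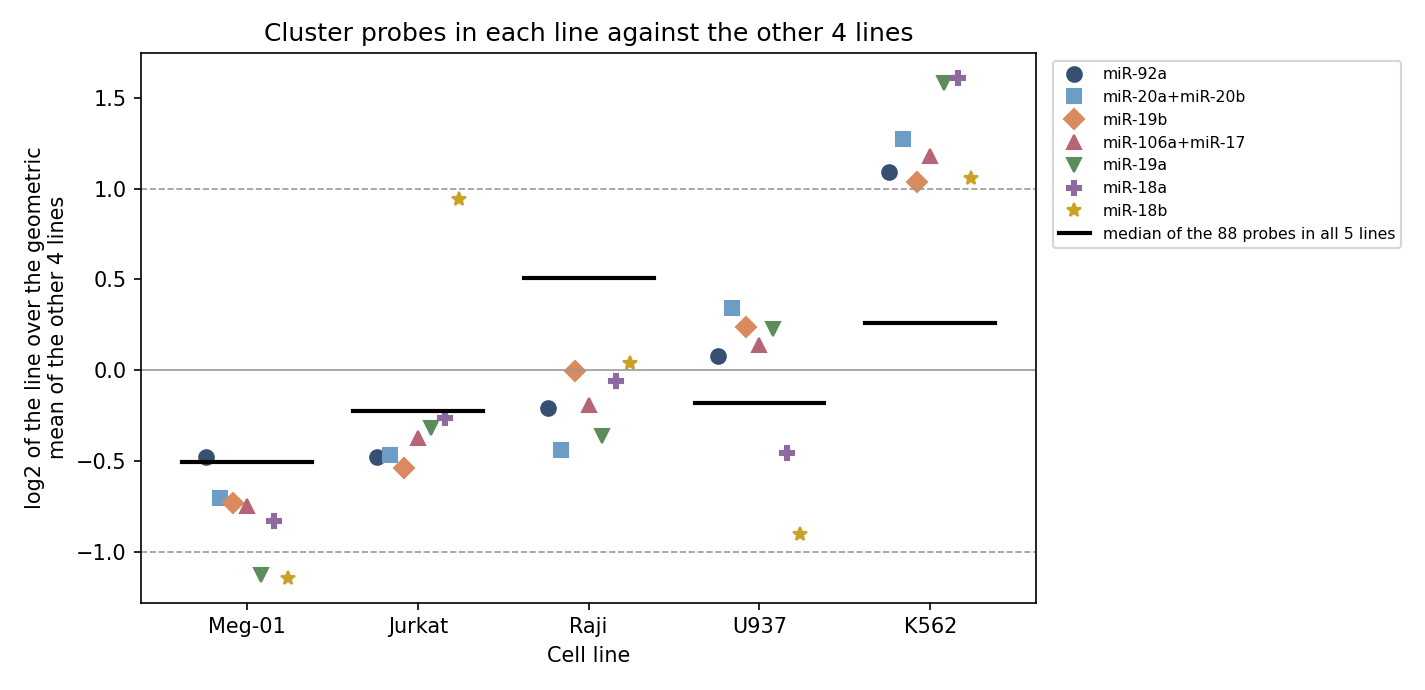
log2 of the scaled count in each line over the geometric mean of the other 4 lines for the 7 probes detected in all lines, with black bars for the median of the 88 human probes detected in all lines and dashed lines at 2-fold. All 7 probes lie above the upper dashed line in K562, between 1.04 and 1.61, and 5 of the 7 lie above 0 in U937.

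Among probes detected in all 5 lines, the highest line was over 2-fold above the lowest for 7 of 7 members and for 80.7% of the 88 probes, so a difference of this size between lines was common. The share over all 308 probes, 91.9%, is not used, since 74 of its 283 probes were below threshold in both Jurkat and Raji, whose scaled thresholds alone differ 2.57-fold. The fold from highest to lowest line had a median of 2.99 over the 7 members (2.38 to 4.496) and 2.53 over the 88 probes.

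Of the summed member signal, miR-92a, miR-20a+miR-20b and miR-19b held 97.2% in K562, 97.99% in U937, 98.3% in Meg-01, 94.7% in Jurkat and 98.4% in Raji. miR-92a alone held 53.6% (U937) to 59.9% (Meg-01). Probes capture their targets with unequal efficiency, so these shares describe assay counts, while a ratio of a pair of probes can be followed from line to line. The ratio of miR-92a to miR-20a+miR-20b lay between 2.02 (U937) and 2.67 (Raji), and that of miR-92a to miR-19b between 2.88 (Raji) and 3.72 (Meg-01). miR-20a+miR-20b exceeded miR-106a+miR-17, which has the same seed, 16.7-fold (Raji) to 21.4-fold (U937).

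Ratios between members varied less over the 5 lines than ratios between human probes in general. For a pair of probes, the highest ratio was divided by the lowest. The median of this fold range was 1.76 for the 21 member pairs detected in all lines and 3.91 for the 3828 pairs of the 88 probes. It was above 2-fold for 33.3% of the member pairs and 83.8% of all pairs. Among the 63 probes at least as abundant as the lowest member the median was 4.89. With background-subtracted values, an alternative added after the data were seen, the median was 2.46 for the member pairs and 7.96 for all pairs, and 57.1% and 95.1% were above 2-fold. The pairs share their 5 libraries and their probes, and these values are a description. Some members are near-identical in sequence, and whether their probes also counted each other's miRNAs was not tested. miR-106a+miR-17 and miR-19b had the narrowest range before subtraction (1.21-fold), and miR-20a+miR-20b and miR-106a+miR-17 after it (1.18-fold). The 6 pairs that include miR-18b had the widest ranges before subtraction, 2.64 to 4.36.

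The clusters were set against each other by ratios of a probe encoded in miR-106a-363 alone to a probe encoded in miR-17-92 alone. miR-18b over miR-18a was 0.484 in K562 (0.382 to 0.612), 0.512 in U937 (0.346 to 0.748), 0.552 in Meg-01 (0.387 to 0.780), 1.28 in Jurkat (1.003 to 1.64) and 0.696 in Raji (0.471 to 1.02). Jurkat was the 1 line with more miR-18b than miR-18a counts, and its interval overlapped that of Raji only. After background subtraction the ratio was 1.40 in Jurkat and 0.391 in K562, but 0.202 in Meg-01, 0.165 in U937 and 0.0923 in Raji, where miR-18b lay near the threshold.

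miR-363 over miR-19a was 3.31 in Jurkat (2.85 to 3.87). In the other lines miR-363 was below threshold while miR-19a was detected, so a ratio there would rest on background counts. In Jurkat miR-363 made up 2.66% of the member signal, more than miR-106a+miR-17 (1.16%), miR-19a (0.710%), miR-18b (0.458%) or miR-18a (0.328%). The raw counts of miR-18b and miR-363, both encoded in miR-106a-363 alone, were thus highest in Jurkat, and those of miR-18a and miR-19a, both encoded in miR-17-92 alone, in K562. After scaling, miR-18b was 133 in K562 and 125 in Jurkat, within counting error, and the other probes kept their highest line.

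**Figure D4:**
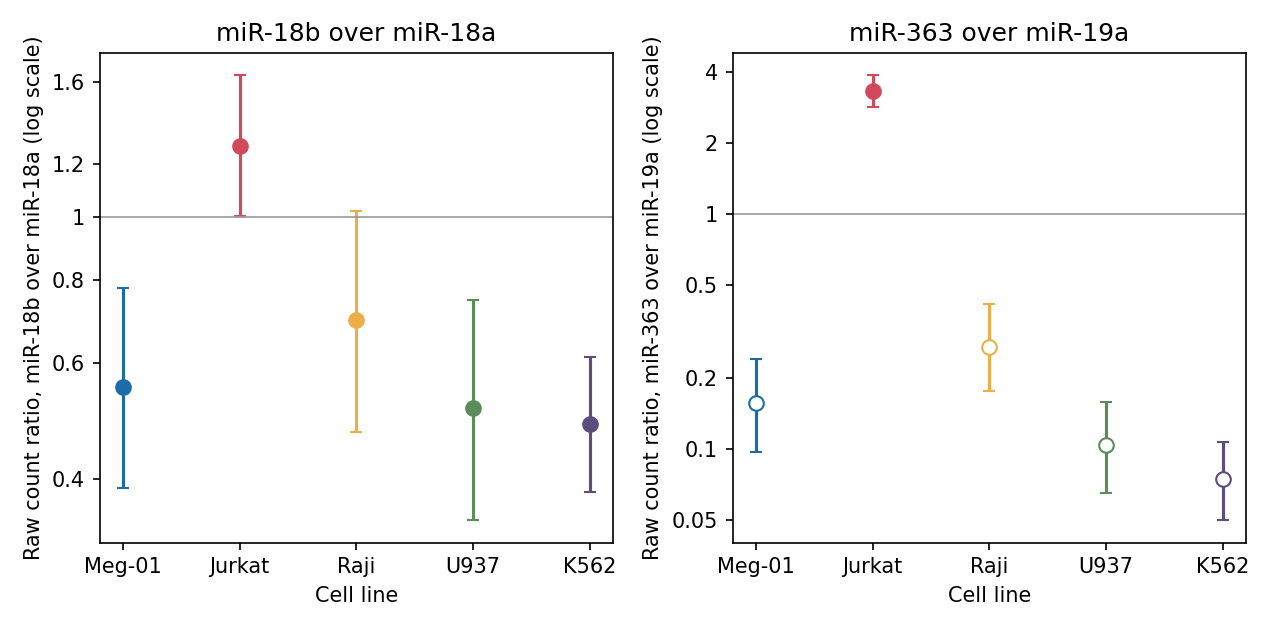
Raw count ratio (log axes) of miR-18b over miR-18a and of miR-363 over miR-19a in each line, with exact conditional binomial 95% intervals. Open points have miR-363 below the background threshold, and Jurkat is the line above 1 in both panels (1.28 and 3.31).

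Within miR-17-92 the near-identical miR-19b and miR-19a also kept unequal counts. miR-19b over miR-19a was 16.3 in K562 (14.8 to 18.1), 22.2 in U937 (19.4 to 25.4), 27.5 in Meg-01 (23.4 to 32.6), 19.5 in Jurkat (17.04 to 22.4) and 26.9 in Raji (22.2 to 32.8). K562 had the lowest ratio, with an interval below those of Meg-01, Raji and U937. After background subtraction K562 was still lowest (17.7), but Raji (45.4) was above Meg-01 (37.6). miR-19b has an added gene in miR-106a-363, and the part of each gene cannot be told apart.

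Grouped by seed, the members supplied most of what the panel measured for that seed. For AUUGCAC, miR-92a and miR-363 held 84.2% (Jurkat) to 92.9% (Meg-01) of the signal of 6 probes. For AAAGUGC the 2 joint probes held 85.4% (Jurkat) to 95.2% (K562) of that of 5 probes. For GUGCAAA and AAGGUGC the panel held no other probe. As shares of all human signal, the AUUGCAC members ranged from 13.4% in Jurkat to 25.3% in K562, the AAAGUGC members from 5.74% to 12.5%, and the miR-19 pair from 3.98% to 8.01%, with the same lowest and highest lines. The miR-18 pair (AAGGUGC) was also highest in K562 (0.297%) but lowest in Raji (0.0525%), with 0.183% in Jurkat.

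The miR-106b-25 cluster supplies other miRNAs with these seeds, shown because they account for most of the remaining seed signal. Their mature sequences in RefSeq, with the single-gene relative miR-92b, are as follows.
miR-106b: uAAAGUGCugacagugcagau
miR-93: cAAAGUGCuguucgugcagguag
miR-25: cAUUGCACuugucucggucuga
miR-92b: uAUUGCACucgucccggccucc

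miR-25 gave 2380 counts in K562, 1560 in U937, 1126 in Meg-01, 2664 in Jurkat and 1068 in Raji. miR-106b gave 374, 394, 485, 681 and 319 counts in that order of lines, and miR-93 gave 261, 255, 264, 494 and 115. All 3 had their highest raw count in Jurkat. After scaling, miR-106b (548 scaled counts) and miR-93 (398) were highest there too, but miR-25 was higher in K562 (2911) than in Jurkat (2145). The 8 members outnumbered these 3 probes 13.7-fold in K562 (13.2 to 14.3), 12.9-fold in U937 (12.3 to 13.5), 14.1-fold in Meg-01 (13.4 to 14.8), 6.90-fold in Jurkat (6.67 to 7.14) and 10.1-fold in Raji (9.56 to 10.6).

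The balance between the paralogs differed by line for each seed. miR-25 over miR-92a was 0.185 in Jurkat (0.177 to 0.193) and 0.0719 in Meg-01 (0.0676 to 0.0764), with the other lines between. miR-106b over miR-106a+miR-17 was 2.003 in Jurkat (1.76 to 2.29) and 0.706 in K562 (0.617 to 0.807), so the order of these probes turned between the lines. miR-93 over miR-106a+miR-17 likewise ran from 1.45 in Jurkat (1.26 to 1.67) to 0.492 in K562 (0.423 to 0.572).

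The probes outside the clusters whose pattern over the 5 lines was most like that of the member sum were sought among 81 probes detected in all lines. Likeness was the root mean square difference of centred log2 scaled counts. miR-92b (0.18), miR-27b (0.20) and miR-374a (0.21) came first. They were also the first 3, in some order, for miR-92a, miR-20a+miR-20b, miR-19b and miR-106a+miR-17. miR-18b was nearest to miR-25 (0.35), closer than to any other member (0.51 for miR-18a). miR-92b is close to miR-92a in sequence, and whether either probe also counted the other miRNA was not tested.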

How the data were processed

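Processed files of 5 samples (1 per line) were used. Per the file headers and values, the authors deposited raw counts per probe for 753 probes: 654 human, 80 virus, 8 negative controls, 6 positive controls and 5 housekeeping. A second deposited table holds signal values that equal the counts minus 1 constant per line with a floor, and was used as an alternative (652 of 654 human probes matched by name). The constant was the line's mean negative control in Meg-01, Raji and U937. It was 16.25 in Jurkat, whose mean was 22.75, and 22.75 in K562, whose mean was 20.25. The study's methods name the nCounter analysis system and GeneSpring for the profiling and nSolver for normalization. The deposited raw counts are whole numbers and not normalized. Groups came from the sample labels. Following the study's methods, each line was scaled so that its 100 highest miRNAs (by mean raw count over the lines) had a common geometric mean. The threshold, also subtracted for shares, was 2 SD above the average negative control. Ratios between lines or probes used unsubtracted counts, with exact conditional binomial intervals. Named miRNAs were all members, their cluster and seed relatives, markers, and the 3 nearest probes. Members and lists were chosen with earlier results of these data known. Alternatives were other thresholds, scalings, probe sets and folds. Calculations were tested on simulated data. The check of ratio interval coverage first missed its criterion in a single draw and was then changed to many draws, and the calculation was left as it was. Python 3.11.15, NumPy 2.4.6, SciPy 1.17.1 and matplotlib 3.10.9 were used.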

Additional observations from a re-analysis of the deposited data

How the results depend on the processing

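The share of human signal held by the members was 22.6% in Jurkat and 44.3% in K562 with the mean of the negative controls as threshold, 22.0% and 44.7% in the deposited signals, and 20.4% and 39.4% without subtraction. It was 23.1% in Jurkat with the highest negative control, and in K562 46.6% with the mean plus 3 SD and 45.7% with virus probes in the total. K562 over Meg-01 for the summed count (1.37 on the log2 scale) became 0.65 without scaling, 0.78 with positive controls, 1.04 with the total count without the members, 1.24 with the 100 highest miRNAs chosen per line, 1.43 with the members left out of the scaling set and 1.85 with housekeeping probes. Members over 2-fold higher than the other lines, 8 over the lines, numbered 4 without scaling or with positive controls and 5 with per-line scaling or the total without the members. Those over 2-fold lower, 4 in all, numbered 7 with housekeeping scaling or with background-subtracted values and 2 against the median of the other 4 lines. An equal count did not mean equal calls: the 4 were miR-18b, miR-19a and miR-363 in Meg-01 and miR-363 in U937, and without scaling they were miR-19a and miR-20a+miR-20b in Raji and miR-363 in U937 and K562. All calls of miR-363 as lower rest on thresholds. The cause of these shifts was not tested. Of the alternative values for the main comparisons, 38 stayed within the limits set and 22 moved, with 0 reversed. Where a comparison named lines, they stayed those of the main setting, so a change of the lowest line was not counted as a reversal. Such changes occurred. The lowest line of the summed count became Raji or Jurkat under some scalings. That of miR-18b over miR-18a became Raji (0.0923) after background subtraction. No paired analysis was possible because each line had 1 sample and the labels give no replicate numbers. With 1 sample per line, differences between lines cannot be told apart from differences between RNA preparations. Low counts limit miR-18b most, and miR-363 outside Jurkat gives bounds only.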

Other observations

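miR-92b, which differs from miR-92a by U10C, G21C and U22C (positions from the 5′ end) and is encoded outside the clusters, gave 191 raw counts in K562, 118 in U937, 139 in Meg-01, 155 in Jurkat and 81 in Raji. Its ratio to miR-92a lay between 0.00780 in U937 (0.00645 to 0.00935) and 0.0108 in Jurkat (0.00912 to 0.0126), a fold range of 1.38 over the 5 lines. After background subtraction the ratio ran from 0.00414 in Raji to 0.00834 in Jurkat, a fold range of 2.02. The AUUGCAC seed is also carried by miR-32, which was detected in all 5 lines with 48 (U937) to 108 (Jurkat) counts, and by miR-367, which was detected in 0 lines (16 to 29 counts). miR-519d, with the AAAGUGC seed, was likewise below threshold in every line (13 to 20 counts).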
